A study of Homo sapiens with 15 samples.

Results

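The desmosome genes DSP, JUP, PKP1, PKP2, PKP3, DSG2, DSG3, DSC2, DSC3 and PERP were followed across a series of RNA sequencing libraries from MCF-10A, an immortalised but non-tumorigenic line of human breast epithelium that the labels call MCF10. The members are a list of known desmosomal genes, taken by symbol and matched to their Ensembl identifiers, and they are 10 of the 60721 genes in the deposited table. The edgeR filter on low counts kept 17457 genes, and all 10 members were among them. The series asks what NF1 deficiency does to these cells, NF1 being the gene of neurofibromin, which lowers RAS signalling.

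There were 15 libraries of polyadenylated RNA in 5 genotypes of 3 libraries each. The unedited genotypes were parental cells and cells with an empty vector. The edited genotypes were NF1 mutants made with guide RNA 1, with guide RNA 2, or with both. No treatment was given, and all cells grew in the same medium with horse serum, EGF, hydrocortisone, cholera toxin and insulin. The labels call the 3 libraries of a genotype biological replicates without saying that they came from separate cultures, so the p-values measure the spread between these libraries, which may be technical. Whether an edited line was 1 clone or a pool is not given in the sources used here.

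A desmosome is a spot weld between neighbouring epithelial cells. Its cadherins, the desmogleins (DSG) and desmocollins (DSC), bind their counterparts on the next cell, and inside the cell the armadillo proteins plakoglobin (JUP) and the plakophilins (PKP) link the cadherin tails to desmoplakin (DSP), which holds the keratin filaments. In stratified and basal epithelia DSG3 and DSC3 are typical of the basal layer, while DSG2 and DSC2 are found in most epithelia that form desmosomes. PERP is a membrane protein that p63 is known to activate and that desmosomes need in stratified epithelia.

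The cadherin genes among the members lie in a single cluster on chromosome 18, and the stretches before the starts of DSG3 and DSG2 are shown because these neighbours had the widest and the narrowest range of level among the 4 cadherins. The bases come from RefSeq on GRCh38.p14, run 5′ to 3′ on the gene's strand, and stop before the first annotated exon. DSG3 is at chr18:31447491-31447740 on the plus strand and DSG2 at chr18:31497927-31498042 on the plus strand. DSC3 is at chr18:31042816-31042992 and DSC2 at chr18:31102523-31102671, both on the minus strand. Capitals mark the E-box letters CAGGTG, which ZEB and SNAI repressors are known to bind.
DSG3: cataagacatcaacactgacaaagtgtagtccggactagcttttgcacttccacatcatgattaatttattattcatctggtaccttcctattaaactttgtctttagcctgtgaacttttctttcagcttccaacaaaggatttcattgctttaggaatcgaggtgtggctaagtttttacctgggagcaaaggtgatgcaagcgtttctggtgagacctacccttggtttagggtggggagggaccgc
DSG2: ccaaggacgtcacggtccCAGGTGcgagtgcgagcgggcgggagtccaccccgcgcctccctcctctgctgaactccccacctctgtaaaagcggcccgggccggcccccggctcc
DSC3: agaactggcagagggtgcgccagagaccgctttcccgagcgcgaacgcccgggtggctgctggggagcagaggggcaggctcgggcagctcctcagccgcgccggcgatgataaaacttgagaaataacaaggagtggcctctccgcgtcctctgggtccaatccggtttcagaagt
DSC2: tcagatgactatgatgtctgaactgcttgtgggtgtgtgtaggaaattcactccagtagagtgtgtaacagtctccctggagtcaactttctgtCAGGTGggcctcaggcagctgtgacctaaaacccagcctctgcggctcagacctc

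RefSeq gave 10 promoter windows for 8 of the 10 members, each of 300 bases, from 250 before the start to 50 after it. PKP2 and PKP3 had no entry. The DSG3 window was 44.0% G and C with 6 CpG pairs, and the DSG2 window was 76.7% with 36 pairs. The median over all 35116 windows was 58.7% with 14 CpG pairs, so the 2 neighbouring desmogleins lay on opposite sides of it. The DSC3 window was 63.3% G and C with 25 CpG pairs, and the outer DSC2 window was 60.7% with 15 pairs.

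The E-box letters, read on both strands, were in 4 of the 10 windows, 1 each of DSG2, DSC2, DSP and JUP, and in 20.592% of all windows. With so few windows, nothing is read from this count. DSG2 held the letters at 232 and 116 bases before the start, the latter beyond the printed bases, and DSC2 held them at 156 bases before it. No match was found in the windows of DSG3, DSC3, PERP or PKP1. The grainyhead core AACCGGTT, in 0.134% of all windows, matched none of the members' windows. The AP-1 letters TGACTCA, in 4.949% of all windows, matched PERP at 101 bases before the start. These matches describe letters in a window and not sites that are used.

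Library totals ran from 46129559 to 78976917 counts with a median of 55942785, so 3 counts were 0.038 to 0.065 CPM (the count of a gene scaled to the total of its library). NF1 was at 26.0 to 51.3 CPM in the 9 edited libraries and at 115.3 to 158.7 CPM in the 6 unedited ones. These ranges did not overlap (edited minus unedited -102.0 CPM, exact permutation test, two-sided, p = 0.0004, the smallest that 5005 arrangements allow after rounding). The test permuted single libraries, while editing belongs to a genotype of 3 libraries. This p therefore does not measure the spread between cell lines. Guide 2 replicate 2 and parental replicate 2 stood apart from the other libraries of their genotypes. On the first principal component, which held 46.4% of the variance, guide 2 replicate 2 scored 91.89 and the other guide 2 libraries -45.96 and -47.8. Its NF1 level was 31.4 CPM, within the edited range. Parental replicate 2 scored -25.24 beside 47.22 and 23.37, with TP63 at 0.815 CPM beside 37.4 and 19.9 and CDH1 at 1.79 CPM beside 42.9 and 37.8. The counts of desmosome genes called are given with and without guide 2 replicate 2, and those that involve parental cells also without parental replicate 2. Basal epithelial markers (KRT5, KRT14, TP63 and ITGB4) summed to 1000 to 6800 CPM, and all 4 were above 3 counts in every library but 1 of guide 2. General epithelial markers (CDH1, EPCAM, KRT8 and KRT18) summed to 255 to 486 CPM and mature luminal ones to 20.2 to 37.6. The general sum hides CDH1, which had 1, 12 and 10 counts in guide 1 and 2 and 3 counts in guide 2 replicates 1 and 3. The other lists were low: fibroblast markers summed to at most 20.9 CPM, endothelial to 2.08, leukocyte to 6.97, adipocyte to 0.383 and cardiomyocyte to 0.127, with CD3E and ADIPOQ at 0 throughout. A lower level in bulk RNA cannot tell fewer cells of a type from less RNA per cell.

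**Figure D1:**
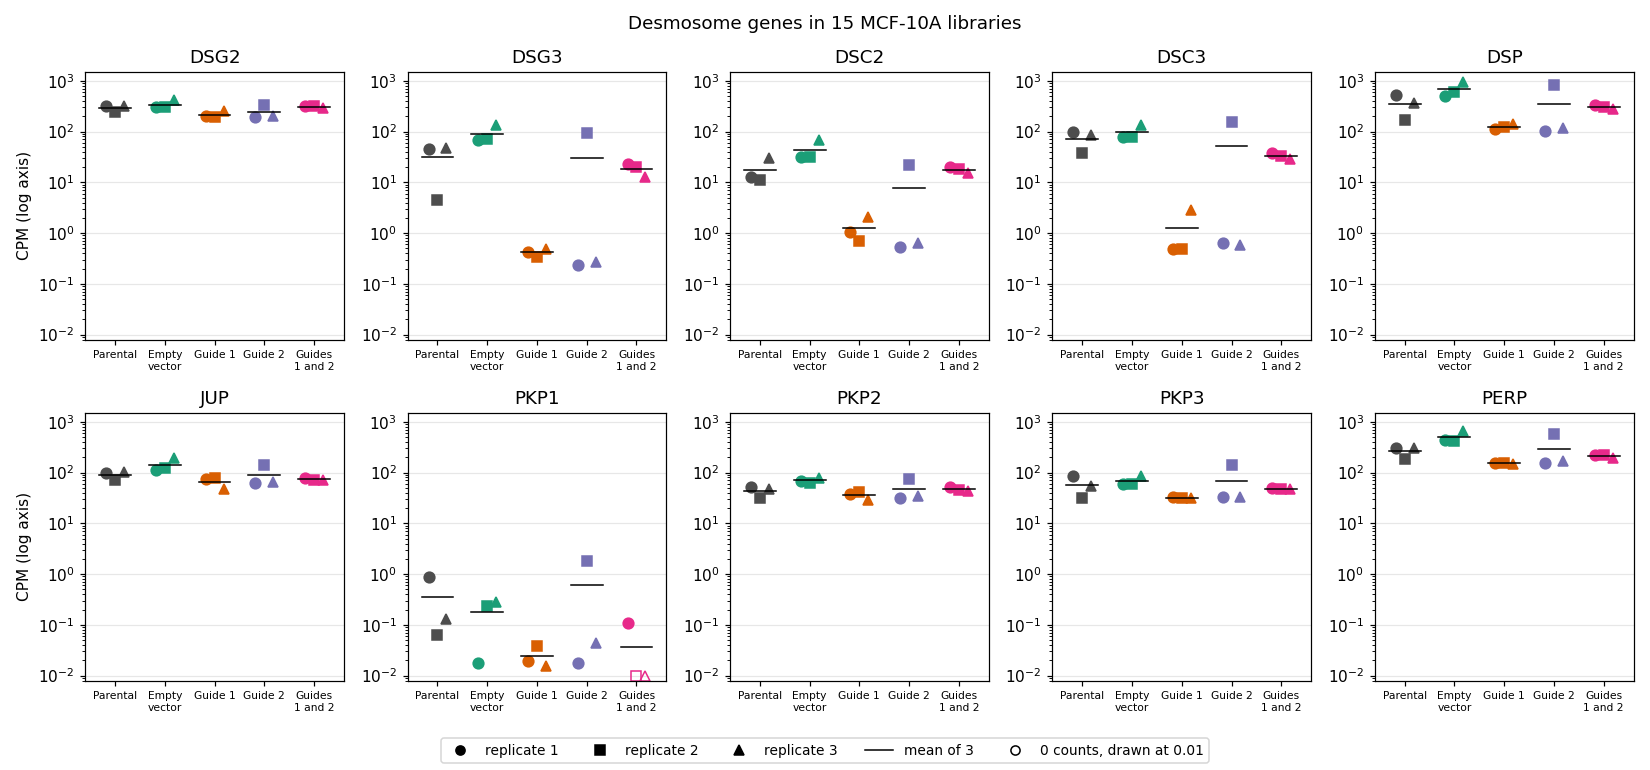
Level of each of the 10 desmosome genes in every library, in CPM on a log axis, by genotype, with replicates as separate symbols, the mean of 3 as a line and libraries with 0 counts as open symbols. In guide 2, replicate 2 lies above the other 2 libraries in every panel, and for DSG3 the guide 1 libraries sit between 0.342 and 0.491 CPM while the empty-vector libraries sit between 67.1 and 135.0.

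DSG3, the basal-layer desmoglein and the target of autoantibodies in pemphigus vulgaris, had the widest range of the members. In empty-vector replicates 1 to 3 it was at 67.1, 72.3 and 135.0 CPM, and in guide 1 at 0.421, 0.342 and 0.491 CPM. In guide 2 it was at 0.235, 91.7 and 0.275 CPM, and with both guides at 23.1, 20.0 and 13.0 CPM. Parental cells had 45.8, 4.42 and 46.4 CPM. Every guide 1 library was below every unedited one, guide 2 replicate 2 lay among the empty-vector libraries, and the libraries with both guides lay between. Guide 1 against empty vector was a log2 fold change of -7.79 (SE 1.94, edgeR quasi-likelihood test, Benjamini-Hochberg adjusted p = 0.0352). Its mean in guide 1 was 0.457% of that in empty vector.

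DSC3, the desmocollin that accompanies DSG3 in basal cells, was likewise lowest in guide 1 and in guide 2 replicates 1 and 3. It was at 77.0, 77.2 and 135.5 CPM in empty vector and at 0.479, 0.481 and 2.85 CPM in guide 1. In guide 2 it was at 0.632, 156.3 and 0.593 CPM, and with both guides at 38.2, 32.5 and 28.7 CPM. Parental cells had 96.1, 37.2 and 85.0 CPM and overlapped empty vector, unlike for DSG3. Guide 2 replicate 2 was the highest of all 15 libraries for DSC3, and guide 1 replicates 1 and 2 were the lowest. The guide 1 difference from empty vector was -6.27 (log2, SE 1.71, edgeR adjusted p = 0.0499).

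DSC2, the more widely expressed desmocollin, was at 31.2, 31.0 and 69.6 CPM in empty vector and at 1.07, 0.684 and 2.07 CPM in guide 1. In guide 2 it was at 0.542, 21.6 and 0.65 CPM, and with both guides at 20.2, 18.1 and 15.3 CPM. Parental cells had 12.6, 10.9 and 29.9 CPM. This was the only member for which all guide 2 libraries, replicate 2 included, were below all empty-vector libraries. DSC2 fell by 5.13 on the log2 scale in guide 1 against empty vector (SE 1.18, edgeR adjusted p = 0.0251).

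DSG2, the desmoglein found most broadly, varied least among the members. It was at 300.9, 307.2 and 411.3 CPM in empty vector, at 198.1, 196.6 and 251.2 CPM in guide 1 and at 196.0, 341.3 and 205.7 CPM in guide 2. With both guides it was at 325.2, 312.9 and 292.9 CPM, and in parental cells at 322.1, 244.6 and 323.3 CPM. All guide 1 libraries were below all empty-vector ones, while the libraries with both guides overlapped both controls. The guide 1 difference was -0.67 (log2, SE 0.201) and did not pass (edgeR adjusted p = 0.069). Without guide 2 replicate 2 in the fit it was -0.68 (SE 0.136) and passed (edgeR adjusted p = 0.00383).

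Per kilobase of exon, so that genes can be set side by side, the 4 cadherins summed to 88.6 ± 23.4 CPM per kb in empty vector and to 35.1 ± 5.28 in guide 1 (mean ± SD, n = 3). DSG2 made up 62.7% ± 4.57 of this sum in empty vector, 74.7% ± 8.98 in parental cells, 84.2% ± 1.84 with both guides and 99.0% ± 0.55 in guide 1. In guide 2 the DSG2 share was 99.4% in replicates 1 and 3 and 57.7% in replicate 2. DSG3 held 18.2% ± 2.54 of the sum in empty vector and DSC3 15.2% ± 1.21. In guide 1 these shares were 0.2% and 0.5%. The DSC3 to DSC2 ratio per kilobase was 3.45 to 4.41 in empty vector, 0.791 to 2.43 in guide 1 and 3.19 to 3.36 with both guides. In replicates 1 to 3 it was 13.5, 6.02 and 5.04 in parental cells and 2.07, 12.8 and 1.61 in guide 2. The desmocollins thus did not move in a fixed proportion, and the unedited genotypes also differed in this ratio without overlap.

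**Figure D2:**
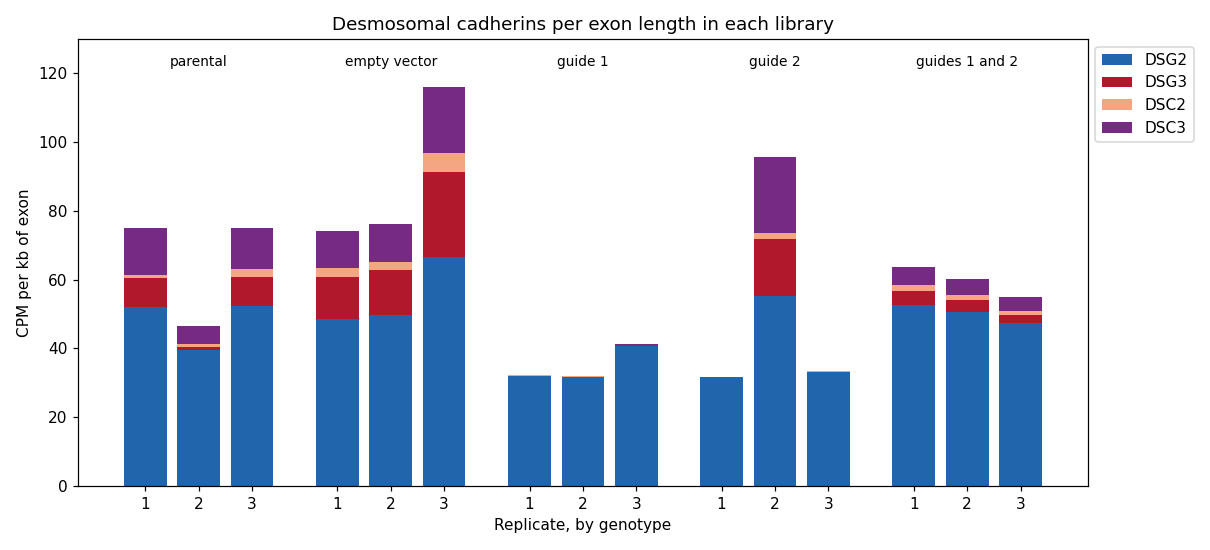
Stacked bars of the 4 desmosomal cadherins in each library, in CPM per kb of exon, by genotype and replicate. The guide 1 bars (31.9 to 41.2) and those of guide 2 replicates 1 and 3 are almost wholly DSG2. Guide 2 replicate 2 (95.6) holds 17.4% DSG3 and 23.2% DSC3. The empty-vector bars hold 16.4% to 21.1% DSG3 and 14.4% to 16.6% DSC3.

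The cadherin cluster runs from 30990008 to 31549008 on chromosome 18 (GRCh38, GENCODE 29), a span of 559 kb, in the order DSC3, DSC2, DSC1, DSG1, DSG4, DSG3 and DSG2. DSC1 had no count in any library. DSG1 and DSG4, cadherins of upper skin layers and hair, reached at most 0.14 and 0.0866 CPM. DSG3 (31447795 to 31478702) ends 19.3 kb before DSG2 (31498043 to 31549008). Over the 15 libraries DSG3 differed 575-fold between the highest and the lowest, and DSG2 2.1-fold. Beyond DSG2, B4GALT6 had a guide 1 log2 difference of -0.54 (edgeR adjusted p = 0.189) and TRAPPC8 one of -0.09 (edgeR adjusted p = 0.445). Neither neighbour passed the test.

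Plakoglobin (JUP) binds cadherin tails in desmosomes and adherens junctions. It was at 114.5, 123.0 and 194.2 CPM in empty vector, at 73.4, 76.5 and 46.6 CPM in guide 1 and at 62.3, 139.4 and 64.3 CPM in guide 2. With both guides it was at 77.5, 71.0 and 72.8 CPM, and in parental cells at 100.0, 70.7 and 101.2 CPM. All guide 1, all double-guide and all parental libraries were below all empty-vector ones. JUP fell by 1.15 on the log2 scale in guide 1 against empty vector (SE 0.309, edgeR adjusted p = 0.047).

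Plakophilins PKP2 and PKP3 bring desmoplakin to the membrane, and PKP1 does so mainly in upper layers of stratified epithelium. PKP2 was at 67.6, 63.2 and 79.2 CPM in empty vector and at 37.4, 40.5 and 29.4 CPM in guide 1. PKP3 was at 58.3, 60.4 and 84.5 CPM in empty vector and at 33.4, 31.7 and 31.4 CPM in guide 1. The guide 1 libraries were below the empty-vector ones for both genes, but neither passed (log2 -0.98, SE 0.288, and -1.09, SE 0.485, with edgeR adjusted p = 0.065 and 0.214). In guide 2 replicates 1, 2 and 3, PKP2 was at 31.2, 76.4 and 33.9 CPM. PKP3 was at 32.4, 140.3 and 33.1 CPM, and replicate 2 was the highest of the 15 libraries. With both guides PKP2 was at 43.8 to 51.5 CPM and PKP3 at 47.4 to 49.5, while parental cells had 32.1 to 53.0 and 30.9 to 86.1.

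PKP1 was at or near the limit of 3 counts in most libraries, from 0 CPM in 2 of the libraries with both guides to 1.79 CPM in guide 2 replicate 2, the highest value. It was at 0.877, 0.0627 and 0.13 CPM in parental cells, and no fold is given. Per kilobase PKP3 held 59.3% to 76.9% of the plakophilin sum over the 15 libraries and PKP2 22.5% to 40.7%. The sum was 27.9 ± 4.99 CPM per kb in empty vector and 13.6 ± 0.95 in guide 1 (SD, n = 3). The makeup of the plakophilins thus overlapped between guide 1 and empty vector, unlike that of the cadherins.

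Desmoplakin (DSP) is the plakin that ties the plaque to keratin. It was at 512.7, 593.5 and 930.0 CPM in empty vector, at 112.3, 121.1 and 138.9 CPM in guide 1 and at 103.2, 815.2 and 115.6 CPM in guide 2. With both guides it was at 336.5, 303.8 and 275.3 CPM, and in parental cells at 517.3, 171.5 and 365.2 CPM. Guide 1 lay below both controls without overlap, and the double-guide libraries lay between guide 1 and empty vector. DSP fell by 2.47 on the log2 scale in guide 1 against empty vector (SE 0.665, edgeR adjusted p = 0.0472). Its antisense gene DSP-AS1 was at 0.658 to 1.49 CPM in the 15 libraries. Use of strand in counting is not given in the sources used here.

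PERP was at 431.5, 427.5 and 660.9 CPM in empty vector, at 156.0, 153.4 and 144.9 CPM in guide 1 and at 151.5, 564.0 and 171.1 CPM in guide 2. With both guides it was at 219.1, 226.1 and 189.5 CPM, and in parental cells at 300.9, 182.0 and 306.5 CPM. Every guide 1 library was below every unedited library, and every parental library was below every empty-vector one. PERP fell by 1.76 on the log2 scale in guide 1 against empty vector (SE 0.407, edgeR adjusted p = 0.0253). Per kilobase PERP had the highest level of the members in empty vector (118.0 ± 31.1 CPM per kb), ahead of DSP (67.2 ± 21.9) and DSG2 (54.9 ± 10.0), each with n = 3 and SD. These genes were measured in the same libraries, so the spread between libraries does not tell whether DSP and DSG2 differed, which was not tested.

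Against empty vector, guide 1 cells thus had 6 of 10 members lower and none higher at an edgeR adjusted p under 0.05: DSG3, DSC3, DSC2, DSP, PERP and JUP. Over all tested genes 4.57% were called lower and 1.31% higher. The median log2 fold change was -2.11 over the members and 0.02 over all tested genes. In 9 of 10 members all guide 1 libraries were below all empty-vector libraries, PKP1 being the exception, and 18.1% of all tested genes had that pattern. The fit without guide 2 replicate 2 called 9 members lower (11.7% of 17849 genes), again all but PKP1. The 4 basal epithelial markers summed to 2630 to 3530 CPM in empty vector and to 1000 to 1840 in guide 1, and their part in the result was not tested. With all libraries 0 of the 4 were called in this comparison, and without guide 2 replicate 2 KRT5, KRT14 and TP63 were called lower. ITGB4 was at 604.7, 665.4 and 781.8 CPM in empty vector and at 694.4, 832.3 and 372.7 in guide 1, and was not called (log2 -0.13, edgeR adjusted p = 0.726 without guide 2 replicate 2). The 6 calls depended on further libraries: leaving out guide 1 replicate 1, 2 or 3, or empty vector replicate 3, left 0 of 10. Leaving out empty vector replicate 1 or 2 or any double-guide library left 2, and leaving out parental replicate 1, 2 or 3 left 3, 5 and 2. Without parental replicate 2, 4.56% of genes were called lower. The counts for the other libraries just named are given without such a share. Nothing is read from them about how the members compare with other genes.

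Guide 2 against empty vector had 0 of 10 members called with all libraries in edgeR (3.94% of all tested genes were called), 3 at an unadjusted p under 0.05, 0 in DESeq2 and 9 in voom with sample quality weights. Here and below, counts by unadjusted p, DESeq2 and voom are given without the share of all genes. Nothing is read from them about the members, and DESeq2 gave no adjusted p for DSG3 and DSC2. The largest difference was that of DSC2, at -2.57 (log2, SE 1.04, edgeR adjusted p = 0.196), and DSC2 was the 1 member of 10 without overlap, against 10.9% of all tested genes. Guide 2 replicate 2 was the highest of its 3 libraries for 10 of 10 members, as it was for 46.4% of all tested genes. Replicates 1 and 3 were both below all empty-vector libraries for 9 of 10 members and 24.9% of all tested genes. Without replicate 2, all members but PKP1 were called lower, 9 of 10 against 9.42% of the genes, with 2 guide 2 libraries left. DSG3 was then at -8.5 (SE 1.05, edgeR adjusted p = 0.000367), DSC3 at -7.33 (SE 0.749, edgeR adjusted p = 0.000114) and DSC2 at -6.22 (SE 0.65, edgeR adjusted p = 0.000129). DSP followed at -2.67 and PERP at -1.68, while JUP, PKP2, PKP3 and DSG2 lay between -1.22 and -0.79.

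The double-guide cells against empty vector had 0 of 10 members called in edgeR (0.962% of tested genes were called), 2 at an unadjusted p under 0.05, 2 in DESeq2 and 7 in voom. All libraries with both guides were below all empty-vector libraries for 8 of 10 members, against 17.2% of tested genes. The exceptions were DSG2 and PKP1. Guide 2 replicate 2 is in neither group but enters the shared estimate of the spread, and the SE of DSG3 was 1.44 with it and 0.582 without it. Without it 6 members were called lower (4.99% of genes): PERP at -1.3, JUP at -1.0, DSG3 at -2.33, DSP at -1.19, PKP2 at -0.61 and DSC3 at -1.58 (log2, edgeR adjusted p from 0.00291 for PERP to 0.0483 for DSC3). These comparisons share the empty-vector libraries with those of the single guides.

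**Figure D3:**
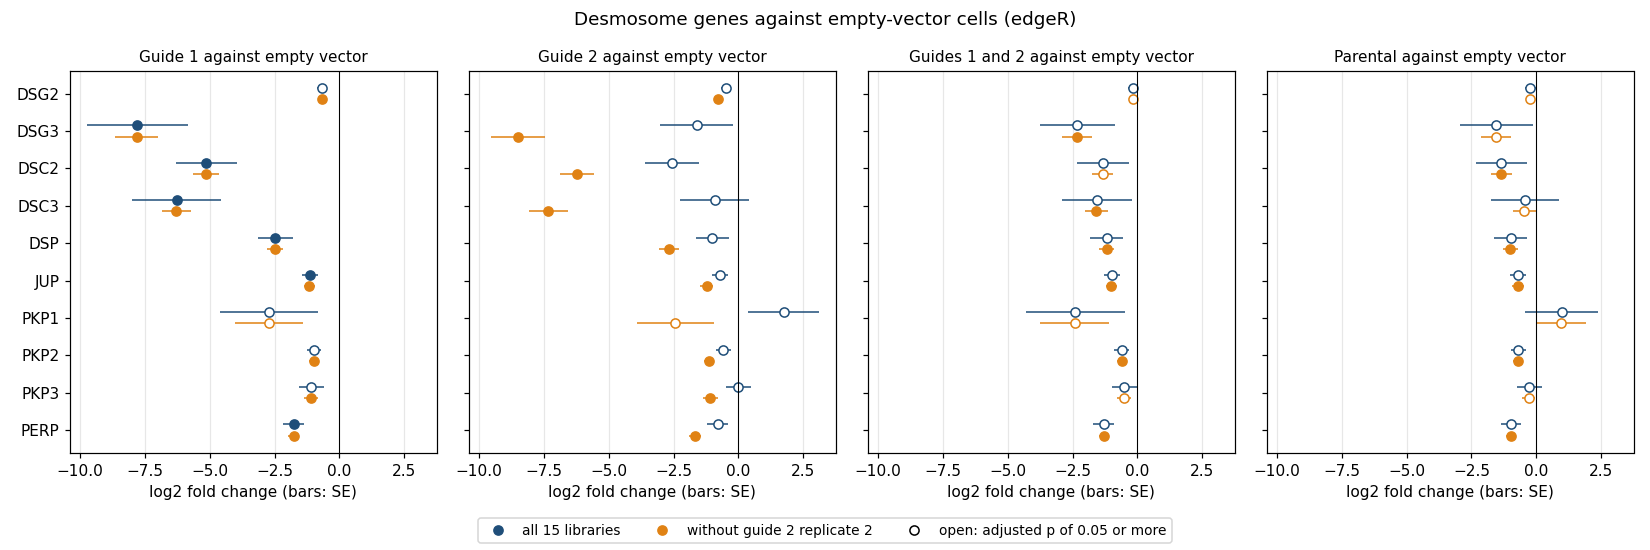
Log2 fold change of the 10 desmosome genes against empty-vector cells from edgeR, with bars for the SE, in 4 panels (guide 1, guide 2, both guides, parental), with all 15 libraries and without guide 2 replicate 2. Filled points have an adjusted p under 0.05. The guide 2 values of DSG3 and DSC3 move from -1.61 and -0.91 to -8.5 and -7.33 when that library is left out, and the PKP1 points rest on few counts.

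The unedited genotypes also differed from each other. Parental against empty vector had 0 of 10 members called in edgeR (4.37% of genes were called), 3 at an unadjusted p under 0.05, 0 in DESeq2 and 5 in voom. For 5 of 10 members (JUP, PKP2, DSG3, DSC2 and PERP) every parental library was below every empty-vector one, against 14.1% of tested genes. Once guide 2 replicate 2 was left out, 5 members were called lower (8.68% of genes): PERP at -0.99, PKP2 at -0.72, DSC2 at -1.36, JUP at -0.71 and DSP at -1.0 (log2, edgeR adjusted p from 0.00531 to 0.0434). Leaving out parental replicate 2 alone gave 0 calls (0.809% of genes were called). Leaving out both libraries, an alternative chosen after seeing the data, gave 3 lower (7.83% of genes): PKP2 at -0.5, DSG3 at -1.01 and PERP at -0.76 (log2, edgeR adjusted p from 0.0102 to 0.0275). Within the parental cells replicate 2 was the lowest library for 10 of 10 members (36.4% of tested genes), with DSG3 at 4.42 CPM beside 45.8 and 46.4. Within empty vector, replicate 3 was the highest for 10 of 10 (37.0% of tested genes).

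With parental cells as the control, guide 1 had 0 of 10 members called in edgeR (0.149% of genes were called), 5 at an unadjusted p under 0.05, 1 in DESeq2 and 8 in voom. Non-overlapping lower values were found for 6 of 10 members (12.8% of tested genes): DSG3, DSC2, DSC3, DSP, PERP and PKP1. PKP1 is set aside, because it had 1, 3 and 1 counts in guide 1 and 50, 4 and 6 in parental cells. In the fit of 14 libraries that lacks guide 2 replicate 2, 6 were called lower (7.47% of genes), among them DSC3 at -5.83 (SE 0.566, edgeR adjusted p = 0.000131), DSG3 at -6.25 (SE 0.802, edgeR adjusted p = 0.000902) and DSC2 at -3.79 (SE 0.482, edgeR adjusted p = 0.000902). DSP at -1.48, PERP at -0.77 and DSG2 at -0.44 were the others. Leaving out parental replicate 2 alone gave 0 calls (0.0558% of genes were called). Leaving out both libraries gave 9 lower, all but JUP, against 15.3% of genes. PKP1 is among these 9 but is set aside here too, because it passed the filter only through the unedited libraries. DSG3 was then at -6.78 (SE 0.365), DSC3 at -6.15 (SE 0.492) and DSC2 at -4.05 (SE 0.47).

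Guide 2 against parental had 0 of 10 called in edgeR (0.0516% of genes were called), 0 at an unadjusted p under 0.05, 0 in DESeq2 and 9 in voom. Without replicate 2, DSC3, DSC2, DSG3 and DSP were called lower, 4 of 10 against 3.05% of genes. With parental replicate 2 alone left out 0 were called (0.0167% of genes were called). With both left out 9 were lower, again all but JUP (9.53% of genes), on 2 libraries a group. PKP1 is among these 9 and is again set aside, with 1 and 3 counts in guide 2 replicates 1 and 3. The double-guide cells against parental had 0 of 10 called in edgeR with all libraries (0.195% of genes were called), 0 at an unadjusted p under 0.05, 0 in DESeq2 and 3 in voom. Leaving out guide 2 replicate 2, they still had 0 called (2.62% of genes were called), with DSC2 at a log2 difference of 0.02 (SE 0.404) and DSC3 at -1.12 (SE 0.436, edgeR adjusted p = 0.197). Without parental replicate 2 alone 0 were called (0.0949% of genes were called), and without both libraries DSG3 and DSC3 were called lower, 2 of 10 against 2.81% of genes. No member had double-guide libraries wholly below or above the parental ones, against 11.5% and 11.6% of tested genes.

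The mean of the edited genotypes against the mean of both controls had 0 of 10 members called in edgeR (1.51% of genes were called), 7 at an unadjusted p under 0.05, 1 in DESeq2 and 9 in voom. The member with the smallest adjusted p was DSC2, at -2.34 (log2, SE 0.639, edgeR adjusted p = 0.094). When guide 2 replicate 2 was left out, all of the 9 members other than PKP1 were called lower, against 11.4% of genes. PKP1 was called too but is set aside, because it had 0 to 5 counts in each remaining edited library and passed the filter only through the unedited ones. DSC3 was then at -4.84 (SE 0.357), DSG3 at -5.43 (SE 0.498) and DSC2 at -3.56 (SE 0.311), and DSG2 was the smallest at -0.43 (SE 0.09, edgeR adjusted p = 0.00594). Without parental replicate 2 alone 0 were called (1.21% of genes were called), and without both libraries the same 9 were lower (14.9% of genes).

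Among the edited genotypes, the double-guide cells had higher values than guide 1 without overlap for 8 of 10 members, all but JUP and PKP1, against 15.3% of tested genes. No member was called in edgeR with all libraries (0.275% of genes were called), 4 had an unadjusted p under 0.05, 1 was called in DESeq2 and 8 in voom. With 14 libraries, guide 2 replicate 2 left out, 5 were called higher with both guides (2.31% of genes): DSC3 at 4.7 (SE 0.55, edgeR adjusted p = 0.000661), DSC2 at 3.81 (SE 0.482, edgeR adjusted p = 0.00142), DSG3 at 5.48 (SE 0.797, edgeR adjusted p = 0.00266), DSP at 1.29 and DSG2 at 0.52. NF1 was at 43.6 to 51.3 CPM in guide 1 and at 26.0 to 29.4 CPM with both guides. In guide 2 replicates 1 to 3 it was at 27.0, 31.4 and 29.8 CPM, with DSG3 at 0.235, 91.7 and 0.275 CPM. A link between NF1 level and cadherin levels was not tested.

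Double-guide against guide 2 cells had 0 of 10 called in edgeR with all libraries (0.149% of genes were called), 1 at an unadjusted p under 0.05, 0 in DESeq2 and 7 in voom. Without guide 2 replicate 2, DSC3 (5.75), DSC2 (4.88) and DSG3 (6.17) were called higher, 3 of 10 against 0.98% of genes. Guide 1 against guide 2 had 0 of 10 called in edgeR (0.0401% of genes were called), 7 at an unadjusted p under 0.05, 1 in DESeq2 and 0 in voom. Without replicate 2 it again had 0 of 10 (0.162% of genes were called) and 0 at an unadjusted p under 0.05. DSG3 then differed by 0.69 on the log2 scale (SE 1.36) and DSP by 0.19 (SE 0.337).

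The members differed widely in how much they varied. The SD of log2 CPM over 15 libraries was 3.43 for DSG3, 3.22 for DSC3 and 2.37 for DSC2, against a median of 0.28 over all tested genes and 0.34 for DSG2. Genotype accounted for 66.8% of the variance of DSG3, and for 94.2% without guide 2 replicate 2. The medians over all tested genes were 39.8% and 53.8%. For DSP the shares were 55.9% and 86.8%, and for PKP3 29.9% and 63.2%. Each member's profile correlated with the mean of the other members at r = 0.601 (PKP1) to 0.98 (DSP) over the 15 libraries, which share genotypes and include the libraries that stood apart.

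Of 8 listed relatives of the desmosome genes 5 were tested, and 0 of 5 were called in any genotype against empty vector, with or without guide 2 replicate 2. With all libraries 5.88% of all tested genes were called in guide 1, 3.94% in guide 2, 0.962% with both guides and 4.37% in parental cells. Without guide 2 replicate 2 these shares were 18.1%, 14.5%, 6.7% and 13.9%. With so few genes in the list, nothing is read from 0 of 5. Plakophilin 4 (PKP4), which also sits at adherens junctions, was at 77.2 to 132.6 CPM over the 15 libraries and at a log2 difference of -0.24 in guide 1 (SE 0.148, edgeR adjusted p = 0.382). Envoplakin (EVPL), a plakin of the cornified envelope, was at 21.9 to 29.9 CPM and at -0.24 (SE 0.103, edgeR adjusted p = 0.2). The median of the 5 was -0.24, against 0.02 for all tested genes.

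The filaments that desmosomes hold were in part lower. In guide 1 against empty vector 3 of 11 tested keratins and vimentin fell (4.57% of all tested genes) and none rose (1.31%), with a list median of -2.02. They were KRT17, a keratin of basal and activated epithelium (log2 -4.89, SE 1.22, edgeR adjusted p = 0.0346), KRT15, a basal keratin (-2.08, SE 0.444, edgeR adjusted p = 0.0187), and KRT18, a simple-epithelial keratin (-0.52, SE 0.103, edgeR adjusted p = 0.014). KRT17 was at 732.7, 815.6 and 1327.3 CPM in empty vector and at 35.9, 37.6 and 24.1 CPM in guide 1. In guide 2 it was at 50.3, 1622.1 and 46.1 CPM, so replicate 2 stood above all empty-vector libraries. KRT15 was the 1 keratin called in guide 2 with all libraries (log2 -1.88, SE 0.441, edgeR adjusted p = 0.0328). Without guide 2 replicate 2, 8 of 11 fell in guide 1, 8 in guide 2 and 3 with both guides, against 11.7%, 9.42% and 4.99% of all tested genes.

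In the adherens junction list, 3 of 11 fell in guide 1 against empty vector (4.57% of all tested genes) and none rose (1.31%). E-cadherin (CDH1) was at 44.1, 46.8 and 127.3 CPM in empty vector and at 0.0191, 0.152 and 0.158 CPM in guide 1, which are 1, 12 and 10 counts (log2 -9.27, SE 2.45, edgeR adjusted p = 0.0446). P-cadherin (CDH3), typical of basal mammary cells, fell by 2.97 (SE 0.75, edgeR adjusted p = 0.0369), and AFDN, which links nectins to actin, fell by 0.87 (SE 0.13, edgeR adjusted p = 0.00424). In guide 2 AFDN and NECTIN4 fell (log2 -0.56 and -1.0, edgeR adjusted p = 0.0315 and 0.0495). The list median in guide 1 was -0.21. Without guide 2 replicate 2, 5 of 11 fell and 1 rose in guide 1, against 11.7% and 6.47% of all tested genes. In guide 2, 5 fell (9.42% of all tested genes), AFDN at -0.69 and NECTIN4 at -0.86 among them (log2, edgeR adjusted p = 0.00327 and 0.0468).

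The hemidesmosome, which anchors keratin to the basement membrane, had 4 of 8 genes lower in guide 1 against empty vector and none higher. Over all tested genes 4.57% were called lower there and 1.31% higher. COL17A1, a transmembrane collagen of the hemidesmosome, was at 279.1, 303.3 and 630.1 CPM in empty vector and at 1.13, 1.25 and 4.05 CPM in guide 1 (log2 -7.58, SE 2.0, edgeR adjusted p = 0.0446). The laminin chains LAMA3 and LAMB3 fell by 4.64 and 0.78 on the log2 scale (edgeR adjusted p = 0.0253 and 0.0284). DST, whose epithelial form binds keratin at hemidesmosomes, fell by 0.62 in guide 1 (edgeR adjusted p = 0.0243), by 0.68 in guide 2 (0.0214), by 0.93 with both guides (0.0111) and by 0.54 in parental cells (0.0495), each against empty vector. Without guide 2 replicate 2, 5 of 8 fell in guide 1, against 11.7% of all tested genes. LAMB3 also fell in guide 2 and in parental cells (log2 -0.89 and -1.2, edgeR adjusted p = 0.0202 and 0.006). When guide 2 replicate 2 was left out, 5 of 8 fell in guide 2 (9.42% of all tested genes), with DST at -0.8 and LAMB3 at -0.84 (log2, edgeR adjusted p = 0.00321 and 0.0135).

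Of 14 tested factors known to regulate desmosomal genes, 2 fell in guide 1 against empty vector (4.57% of all tested genes) and none rose (1.31%). SNAI1, an E-box repressor of cadherin genes, was at 2.42, 2.99 and 3.06 CPM in empty vector and at 0.574, 0.899 and 0.902 CPM in guide 1 (log2 -1.83, SE 0.205, edgeR adjusted p = 0.000845). It also fell in guide 2, with both guides and in parental cells against empty vector (log2 -1.82, -1.15 and -1.28). GRHL1, a grainyhead factor of epithelia, fell in guide 1 by 2.12 (SE 0.556, edgeR adjusted p = 0.0433). TP63, the master factor of basal epithelium and one of the basal markers above, was at 43.1, 41.4 and 68.0 CPM in empty vector and at 0.153, 0.203 and 0.142 CPM in guide 1. Its guide 1 difference of -8.23 missed the threshold (SE 2.26, edgeR adjusted p = 0.0506). In guide 2 it was at 0.0542, 75.8 and 0.0723 CPM, high in the same library as the desmosome genes. With guide 2 replicate 2 left out, 5 of 14 factors fell and 2 rose in guide 1, against 11.7% and 6.47% of all tested genes. The 2 that rose, named after their values were seen, were the E-box repressors ZEB1 (0.39, edgeR adjusted p = 0.00732) and ZEB2 (0.66, edgeR adjusted p = 0.0131). In guide 2 then 3 fell, SNAI1 among them (-1.84, edgeR adjusted p = 0.000433), and 1 rose, ZEB1 (0.69, edgeR adjusted p = 0.000733). Over all tested genes 9.42% fell and 5.04% rose there. The part of these factors in the levels of the desmosome genes was not tested.

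Of 10 proteases and kinases known to act on desmosomal proteins, 3 fell in guide 1 against empty vector (4.57% of all tested genes): ADAM17, a sheddase (log2 -0.46, edgeR adjusted p = 0.0129), GSK3B (-0.36, edgeR adjusted p = 0.0138) and SRC (-0.83, edgeR adjusted p = 0.0355). In guide 2, 2 fell (2.73% of all tested genes): GSK3B (-0.33, SE 0.0714, edgeR adjusted p = 0.0246) and ADAM10, a sheddase named after its values were seen (-0.36, SE 0.079, edgeR adjusted p = 0.0247). PRKCE, a protein kinase C, rose in guide 2 (0.84, SE 0.167, edgeR adjusted p = 0.0166) and in parental cells (0.65, SE 0.167, edgeR adjusted p = 0.0449). The list median in guide 1 was -0.2. With guide 2 replicate 2 left out, 5 fell and 2 rose in guide 1, against 11.7% and 6.47% of all tested genes. In guide 2 then 4 fell and 2 rose, against 9.42% and 5.04%. There ADAM10 was at -0.36, GSK3B at -0.3 and PRKCE at 0.62 (log2, edgeR adjusted p = 0.0123, 0.0123 and 0.0112).

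Among 11606 tested genes with an average log2 CPM of at least 1, those most like the mean profile of the 10 desmosome genes over the 15 libraries were FGFR2 (Pearson r = 0.985), CASZ1 (0.985), MYO1D (0.984), FRMD4B (0.984) and SFRP1 (0.984). Without guide 2 replicate 2 their r was 0.983, 0.982, 0.985, 0.983 and 0.981. FGFR2, a fibroblast growth factor receptor whose IIIb form is epithelial, had a mean of 5.269 CPM in empty vector, 0.7534 in guide 1 and 2.191 with both guides. In guide 2 replicate 2 it was at 7.612 CPM, its highest level. TP63 ranked 8 from the top (r = 0.98) and CDH1 ranked 15 (0.977). The genes most opposite were BRI3 (r = -0.961), NSF (-0.952), LINC00886 (-0.95), FLVCR2 (-0.944) and GREB1L (-0.942). FLVCR2 had a mean of 8.739 CPM in empty vector, 31.5 in guide 1 and 12.2 with both guides. The points share genotypes and libraries, and these values describe them with no test. The mean profile was not scaled by each gene's spread. It therefore weighs DSG3, DSC3 and DSC2 most (SD of log2 CPM 3.43, 3.22 and 2.37) and DSG2 least (0.34).

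**Figure D4:**
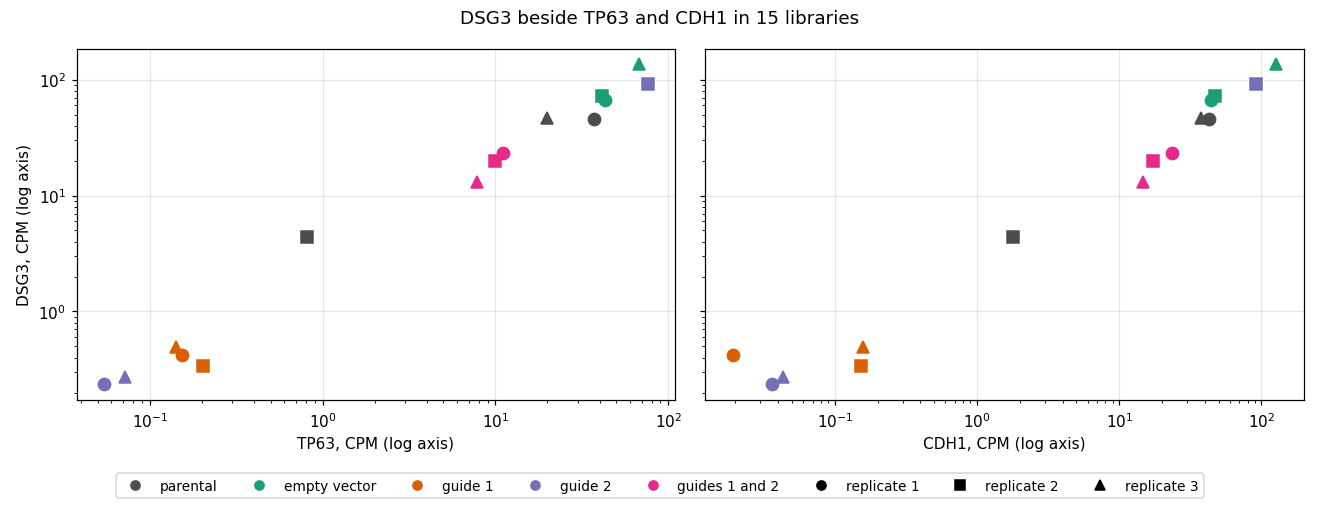
DSG3 against TP63 and CDH1 in the 15 libraries, all axes in CPM and logarithmic, coloured by genotype with replicates as symbols. Guide 1 and guide 2 replicates 1 and 3 form the lowest group, parental replicate 2 lies alone in the middle, and guide 2 replicate 2 lies with the empty-vector libraries.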

How the data were processed

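RNA was sequenced in 15 libraries. The authors deposited whole-number read counts per gene and a table of CPM. Deposited CPM equalled counts over library totals to within 4.91e-11. Per the submitters' processing notes, Trim Galore 0.6.0, STAR 2.7.8a and GRCh38 were used, while the counting program, annotation and strand setting are not given in the sources used here. Deposited counts were filtered (filterByExpr), scaled by TMM and fitted with edgeR 4.0.16 (R 4.3.3) in 1 model of genotype means over 15 libraries, by the quasi-likelihood test, two-sided, with Benjamini-Hochberg adjustment over 17457 genes and a threshold of 0.05. Of the identifiers, 60357 matched a symbol. Log2 CPM used a prior count of 2.

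The desmosome genes and the gene lists were chosen with earlier results of these data known. Named genes are the 10 members, NF1, up to 4 genes a list that were called against a control (by smallest adjusted p), otherwise the 2 with the highest level, and the 5 genes most and least like the members' mean profile. TP63, ZEB1, ZEB2 and ADAM10 were named after their values were seen. The basal markers in the text are named as a list. Some genes are not reported here and were left out of the lists and the ranking.

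Alternatives were RLE scaling, no filter, a replicate block, limma 3.58.1 voom with sample quality weights, DESeq2 1.42.0, only the compared groups, and each library left out, and guide 2 replicate 2 and parental replicate 2 left out together was added after seeing the data. The procedure was tested on simulated data. Permutation used scipy 1.17.1, sequence reading and tables Python 3.11.15 with pandas 2.3.3 and numpy 2.4.6, and plots matplotlib 3.10.9. A floor of 3 counts allows for counting error alone: no molecular identifiers are stated, so PCR copies of a molecule may each count. In each of the 15 replicate pairs 24.64% to 76.76% of genes with at least 20 counts differed beyond sampling noise, so all libraries counted as separate.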

Additional observations from a re-analysis of the deposited data

How the results depend on the processing

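The number of desmosome genes called depended on the tool and on single libraries. No share of all genes called is given here for other tools, scaling, filters, compared groups, the replicate block or 1 library left out. Such counts show how the number shifts and not how the members compare with other genes. Guide 1 against empty vector, with 6 of 10 called, had 6 with RLE scaling, 8 with no filter, 9 with only the compared groups, 9 with voom and 6 with DESeq2, which gave no adjusted p for DSG3 and DSC2 in any comparison. Leaving out 1 library gave 0 to 9. All other comparisons had 0 called with all libraries. With voom the counts were 9 for guide 2 and 7 for both guides against empty vector, 5 for parental against empty vector, 8, 9 and 3 for guide 1, guide 2 and both guides against parental, 9 for edited against unedited, and 8 and 7 for both guides against guide 1 and guide 2. DESeq2 gave 2 for both guides against empty vector and 1 each for guide 1 against parental, edited against unedited, guide 1 against guide 2 and both guides against guide 1. Only the compared groups gave 8 for both guides against empty vector, 2 for guide 1 against parental and 7 for both guides against guide 1. No filter gave 1 for edited against unedited. Leaving out 1 library gave 0 to 9 for guide 2, 0 to 6 for both guides and 0 to 5 for parental against empty vector, 0 to 6, 0 to 4 and 0 to 0 for guide 1, guide 2 and both guides against parental, 0 to 10 for edited against unedited, 0 to 0 for guide 1 against guide 2, and 0 to 5 and 0 to 3 for both guides against guide 1 and guide 2. In every comparison where leaving out 1 library gave a call, the highest such count came from leaving out guide 2 replicate 2. Leaving out guide 2 replicate 2 and parental replicate 2 together was chosen after seeing the data. Against empty vector it gave 9, 7 and 3 lower for guide 2, both guides and parental (10.1%, 6.24% and 7.83% of genes). Against parental it gave 9, 9 and 2 lower for guide 1, guide 2 and both guides (15.3%, 9.53% and 2.81%). For edited against unedited it gave 10 lower (14.9%). For both guides against guide 1 and guide 2 it gave 6 and 6 higher (4.13% and 2.23%). PKP1, with few counts, is among the 10 and among both counts of 9 against parental. The comparison of edited with unedited cells uses all groups, so only the compared groups was not run there. The cause of these shifts was not tested.

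With the replicate number as a block, 0 of 10 members were called in guide 1 against empty vector. Over all genotypes, the correlation of deviations in 30 same-numbered pairs was -0.05 on average (-0.75 to 0.28), beside 0.028 for other pairs. Between empty vector and guide 1, however, same-numbered pairs were at 0.1365, 0.1858 and 0.2799. Other pairs of these 2 genotypes were at -0.2078 to 0.0958. Whether these libraries were paired was not tested, so the result with the block is not set aside.

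Every called member kept a negative guide 1 difference under all settings that gave a value. DSG3 ranged from -8.0 to -7.4 on the log2 scale when 1 library was left out, DSC3 from -7.65 to -5.85, DSC2 from -5.66 to -4.62, DSP from -2.65 to -2.17, PERP from -1.89 to -1.52 and JUP from -1.31 to -0.87. PERP stayed past the threshold in 17 of its alternatives and missed it in 5, and DSC3 in 9 and 13. Depth limits PKP1, which was near 3 counts in most libraries.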
